A study of Mus musculus with 3 samples.

Results

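The genes described here mark the somatic cells that surround germ cells in the testis, and their CpG methylation was measured in sorted male germ cells. The 10 genes were chosen by name for their lineage, by a rule that uses no methylation value, and are 10 of the 24746 genes with a curated RefSeq transcript on the nuclear chromosomes. *Sox9*, *Amh*, *Wt1*, *Gata4* and *Nr5a1* stand for Sertoli cells, although *Gata4* and *Nr5a1* are used by Leydig cells as well. *Star*, *Cyp11a1*, *Hsd3b1*, *Cyp17a1* and *Insl3* stand for Leydig cells. The study asked how the piRNA system and DNA methylation share the silencing of retrotransposons in male germ cells. Spermatogonia were sorted with an antibody to the surface protein EpCAM from testes of C57BL6/J mice at postnatal day 7, and bisulfite sequencing was done for 3 genotypes. These were WT, Pld6 KO, which lacks a nuclease of piRNA production, and Dnmt3L KO, which lacks the cofactor of the de novo DNA methyltransferases. Per the study's methods, the WT category could take mice that were *Pld6*+/+, *Pld6*+/- or *Dnmt3l*+/-, and the mutant lines had been backcrossed to C57BL/6J. For each genotype 1 file was analysed and treated as a single library, and whether it pools replicate libraries is not given in the sources used here. Genotype and library are therefore confounded, and their effects cannot be told apart.

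Sertoli cells nurse the germ cells inside the seminiferous tubules, and Leydig cells between the tubules make androgens from cholesterol. Both cell types depend on lineage transcription factors, and the Leydig cell enzymes act in series from cholesterol import to androgen. DNA methylation at a promoter is often linked to silencing, but CpG-dense promoters are usually unmethylated whether or not the gene is used, so that a gene can be silent in germ cells without a methylated promoter.

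The level of a region is the fraction of its CpG calls that were methylated, pooled over sites, where a call is the reading of 1 CpG site by 1 read. The promoter reached from 2 kb before the gene start to 0.5 kb past it, and the gene body from there to the gene end. Each level carries a 95% Wilson interval and each difference a 95% Newcombe interval. Both cover counting error only and count linked calls of a read as separate ones, which makes them too narrow. WT had 43757722 calls, the Pld6 KO library 64076569 and the Dnmt3L KO library 19289688, or 2.0, 2.92 and 0.879 calls per CpG site of the genome, and the Dnmt3L KO values below are the least precise.

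Regions that bear on cell purity were examined in the same libraries, within 500 bp of the gene start. Promoters of 11 germline genes, which somatic cells methylate, were at a pooled level of 0.0865 in WT, 0.131 in Pld6 KO and 0.00299 in the Dnmt3L KO library. The 5′ starts of 8 imprinted genes were at 0.0574, 0.0867 and 0.00771. Somatic cells methylate the imprinted regions of these genes on the maternal copy, and male germ cells keep them unmethylated. Pooled over calls, both sets were highest in Pld6 KO and lowest in Dnmt3L KO, whose methylation is low throughout, at 0.301 of all calls against 0.703 in WT and 0.722 in Pld6 KO. Gene by gene the order was mixed, since 7 of 11 germline starts and 4 of 8 imprinted starts had a higher level in Pld6 KO than in WT, while the others had a lower one. The median over starts with at least 10 calls was 0.0526 in WT and 0.133 in Pld6 KO for the germline genes, and 0.0692 and 0.0700 for the imprinted genes. All these values are from the 5′ start of each gene, and whether each such start lies in an imprinted region was not tested. That of *Snrpn* held only 6 CpG sites, with 2 of 2 methylated calls in WT, 4 of 7 in Pld6 KO and no call in Dnmt3L KO. At the 3′ start of *Snrpn*, with 29 sites, 11 of 25 calls were methylated in WT, 0 of 34 in Pld6 KO and 2 of 28 in Dnmt3L KO. At the 3′ start of *Mest*, with 69 sites, the counts were 0 of 159, 8 of 215 and 1 of 65. No share of somatic cells was derived from these values, and the part of residual somatic cells in the levels below was not tested.

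Promoter sequences of 3 of the 10 genes were at hand in a RefSeq table for GRCm38.p6, the assembly that mm10 names. They are shown because they contrast a CpG-dense start with CpG-poor ones, and because the starts of *Cyp11a1* differ from each other. Each runs 5′ to 3′ from 250 bp before the start to 50 bp after it, with CpG sites in capitals.
*Cyp11a1* 5′ start, GRCm38.p6, chr9:57997774-57998073, plus strand: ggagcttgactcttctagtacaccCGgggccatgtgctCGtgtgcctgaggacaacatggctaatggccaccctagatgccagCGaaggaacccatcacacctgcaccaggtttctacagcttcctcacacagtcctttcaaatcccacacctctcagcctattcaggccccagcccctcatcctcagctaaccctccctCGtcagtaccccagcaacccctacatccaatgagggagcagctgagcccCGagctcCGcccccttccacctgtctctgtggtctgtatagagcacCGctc
*Cyp11a1* 3′ start, GRCm38.p6, chr9:58014702-58015001, plus strand: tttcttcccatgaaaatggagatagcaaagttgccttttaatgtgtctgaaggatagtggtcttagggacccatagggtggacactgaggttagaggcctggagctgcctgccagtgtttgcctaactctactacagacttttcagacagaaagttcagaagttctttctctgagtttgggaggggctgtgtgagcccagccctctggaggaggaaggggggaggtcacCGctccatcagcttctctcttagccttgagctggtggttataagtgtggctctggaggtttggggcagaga
*Hsd3b1*, GRCm38.p6, chr3:98859745-98860044, minus strand: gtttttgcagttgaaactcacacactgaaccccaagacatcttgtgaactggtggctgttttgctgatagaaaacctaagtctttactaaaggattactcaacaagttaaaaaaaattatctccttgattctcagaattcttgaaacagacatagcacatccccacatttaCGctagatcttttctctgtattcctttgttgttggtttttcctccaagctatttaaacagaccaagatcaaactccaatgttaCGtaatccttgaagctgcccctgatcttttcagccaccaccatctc
*Insl3*, GRCm38.p6, chr8:71689002-71689301, plus strand: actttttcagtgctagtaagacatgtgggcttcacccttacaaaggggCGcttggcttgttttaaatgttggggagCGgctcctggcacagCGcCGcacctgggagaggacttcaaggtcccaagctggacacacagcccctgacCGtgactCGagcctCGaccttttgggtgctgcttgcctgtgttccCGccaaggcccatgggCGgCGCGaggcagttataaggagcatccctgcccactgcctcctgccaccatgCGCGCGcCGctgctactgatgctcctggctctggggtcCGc

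The window at the 5′ start of *Cyp11a1* held 7 CpG sites, that at its 3′ start 1 site, that of *Hsd3b1* 2 sites and that of *Insl3* 16 sites. At the *Insl3* sites, 2 of 50 calls were methylated in WT, 0 of 63 in Pld6 KO and 0 of 31 in the Dnmt3L KO library. At the 5′ start of *Cyp11a1* the counts were 2 of 15, 0 of 24 and 0 of 11. The 2 methylated *Cyp11a1* calls in WT make a level of 0.133 with an interval of 0.0374 to 0.379. The sites of *Hsd3b1* were methylated in 3 of 3, 7 of 8 and 1 of 1 calls, and the site at the 3′ start of *Cyp11a1* had calls in Pld6 KO alone, 3 of 3 methylated. Motifs of regulators of these genes were searched on both strands as exact matches, so that variant forms of a motif were not covered. AAGGTCA, bound by NR5A1, was in none of the 4 windows (4.72% of 32851 RefSeq promoters of this length hold it), and neither was ACAAT of SOX factors (31.0%). AGATAA of GATA factors (11.2%) was found in *Hsd3b1*, on the strand opposite to the one printed. CCAAT (37.4%) was found on the printed strand in *Hsd3b1* and at the 5′ start of *Cyp11a1*.

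Of the genes that stand for Sertoli cells alone, the transcription factor genes *Sox9* and *Wt1* had low promoter levels and the hormone gene *Amh* a high one in WT. *Sox9* encodes the factor that directs the embryonic gonad to the Sertoli fate (chr11:112782210-112787757, plus strand, mm10). Its promoter, with 138 CpG sites, was at 0.0143 in WT (95% interval 0.00612 to 0.0330, 350 calls), 0.0127 in Pld6 KO (393 calls) and 0.00787 in the Dnmt3L KO library (127 calls). The intervals overlapped in all 3 libraries. *Wt1* encodes a zinc finger factor needed for gonad formation and Sertoli cell upkeep (chr2:105126529-105173614, plus strand). Its promoter was at 0.0261 in WT (230 calls), 0.0820 in Pld6 KO (366 calls) and 0 of 57 calls in the Dnmt3L KO library, which allows a level of up to 0.0631. The difference, WT minus Pld6 KO, was -0.0559 (-0.0914 to -0.0178). Of the methylated Pld6 KO calls, 28 of 30 lay between 2 and 1 kb upstream, where WT was at 0.139 and Pld6 KO at 0.248. Within 500 bp of the start *Wt1* had 0 of 159, 1 of 224 and 0 of 33 methylated calls. The antisense noncoding gene *Wt1os* starts just upstream of *Wt1* on the other strand, within this promoter.

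*Amh*, the gene for anti-Müllerian hormone of immature Sertoli cells, is 2.44 kb long (chr10:80805240-80807679, plus strand). Its promoter held 31 CpG sites, and its distal part overlaps the 3′ end of *Sf3a2*, a splicing factor gene. It was at 0.869 in WT (0.762 to 0.932, 61 calls), 0.884 in Pld6 KO (0.811 to 0.931, 112 calls) and 0.269 in the Dnmt3L KO library (0.137 to 0.461, 26 calls). The Dnmt3L KO library stood apart from both others, and was lower than WT by 0.60 (0.380 to 0.746). Exon 1 was at 0.667, 0.914 and 0.20, exon 3 had 1 of 23, 21 of 65 and 1 of 35 methylated calls, and exon 5, with 77 of the CpG sites, had 3 of 232, 0 of 291 and 1 of 90. The last exon was thus low in every library.

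The factors shared by both lineages were unmethylated at their CpG-dense starts. *Gata4*, a zinc finger factor of gonadal somatic cells (chr14:63198914-63245271, minus strand), had 0 of 250 methylated promoter calls in WT, 1 of 342 in Pld6 KO and 1 of 113 in the Dnmt3L KO library. The 0 of 250 calls allow a WT level of up to 0.0151, under the median of CpG-dense promoters, 0.0566. *Nr5a1* encodes steroidogenic factor 1, which drives the steroid enzyme genes (chr2:38692656-38714542, minus strand), and has 2 annotated starts 2308 bp apart. At the 5′ start, with 24 CpG sites in the promoter, the level was 0.395 in WT (0.264 to 0.544, 43 calls), 0.289 in Pld6 KO (76 calls) and 0.167 in the Dnmt3L KO library (0.0470 to 0.448, 12 calls), with overlapping intervals. At the 3′ start, with 137 CpG sites, it was 0.0436 (321 calls), 0.0145 (414 calls) and 0.00769 (130 calls). The WT intervals of the 2 starts did not overlap.

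The Leydig genes split by CpG density. *Star* encodes the protein that carries cholesterol into mitochondria (chr8:25808474-25815982, plus strand). Its promoter of 16 CpG sites was at 0.610 in WT (0.457 to 0.743, 41 calls), 0.797 in Pld6 KO (0.683 to 0.877, 64 calls) and 0.50 in the Dnmt3L KO library (0.268 to 0.732, 14 calls). *Cyp17a1* encodes the enzyme that turns C21 into C19 steroids (chr19:46667165-46673000, minus strand), and an antisense noncoding gene, *Gm41857*, spans its promoter. That promoter, with 23 CpG sites, was at 0.857 in WT (0.722 to 0.933, 42 calls), 0.745 in Pld6 KO (106 calls) and 0.667 in the Dnmt3L KO library (0.454 to 0.828, 21 calls). For both genes the interval of the difference between WT and Dnmt3L KO included 0, at 0.110 (-0.168 to 0.378) for *Star* and 0.190 (-0.0203 to 0.416) for *Cyp17a1*. The *Star* value depended on the window. Within 500 bp of the start *Star* was at 0.630 in WT and 0.222 in Dnmt3L KO, on 27 and 9 calls, and the difference was 0.407 there and 0.405 from 1 kb upstream to 1 kb downstream. With sites of at least 3 calls alone, which left 3 Dnmt3L KO calls at *Star* and 9 at *Cyp17a1*, the differences turned to -0.394 and -0.114.

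*Hsd3b1*, for the enzyme that makes progesterone from pregnenolone (chr3:98852194-98859794, minus strand), had 8 CpG sites in its promoter and 8 of 9 methylated calls in WT, 27 of 29 in Pld6 KO and 3 of 7 in the Dnmt3L KO library. With under 10 calls in WT and Dnmt3L KO it was not compared. *Cyp11a1*, for the enzyme that cleaves the cholesterol side chain (chr9:57998024-58027031, plus strand), has a CpG-richer 5′ start and, 16928 bp downstream, a CpG-poor 3′ start. The 5′ promoter was at 0.157 in WT (0.110 to 0.219, 172 calls), 0.266 in Pld6 KO (0.208 to 0.334, 184 calls) and 0.109 in the Dnmt3L KO library (0.0540 to 0.209, 64 calls). The 3′ promoter was at 0.882 (0.785 to 0.939, 68 calls), 0.851 (67 calls) and 0.409 (0.233 to 0.613, 22 calls), lower in Dnmt3L KO than in WT by 0.473 (0.247 to 0.659). The starts of *Cyp11a1* thus differed from each other by more than their intervals in every library. *Insl3*, for the peptide hormone of testis descent (chr8:71689252-71690577, plus strand), lies inside the annotated 3′ part of *Jak3* on the same strand. Its promoter of 80 CpG sites was at 0.0968 in WT (0.0674 to 0.137, 279 calls), 0.0669 in Pld6 KO (314 calls) and 0.0231 in the Dnmt3L KO library (0.00788 to 0.0657, 130 calls).

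**Figure D1:**
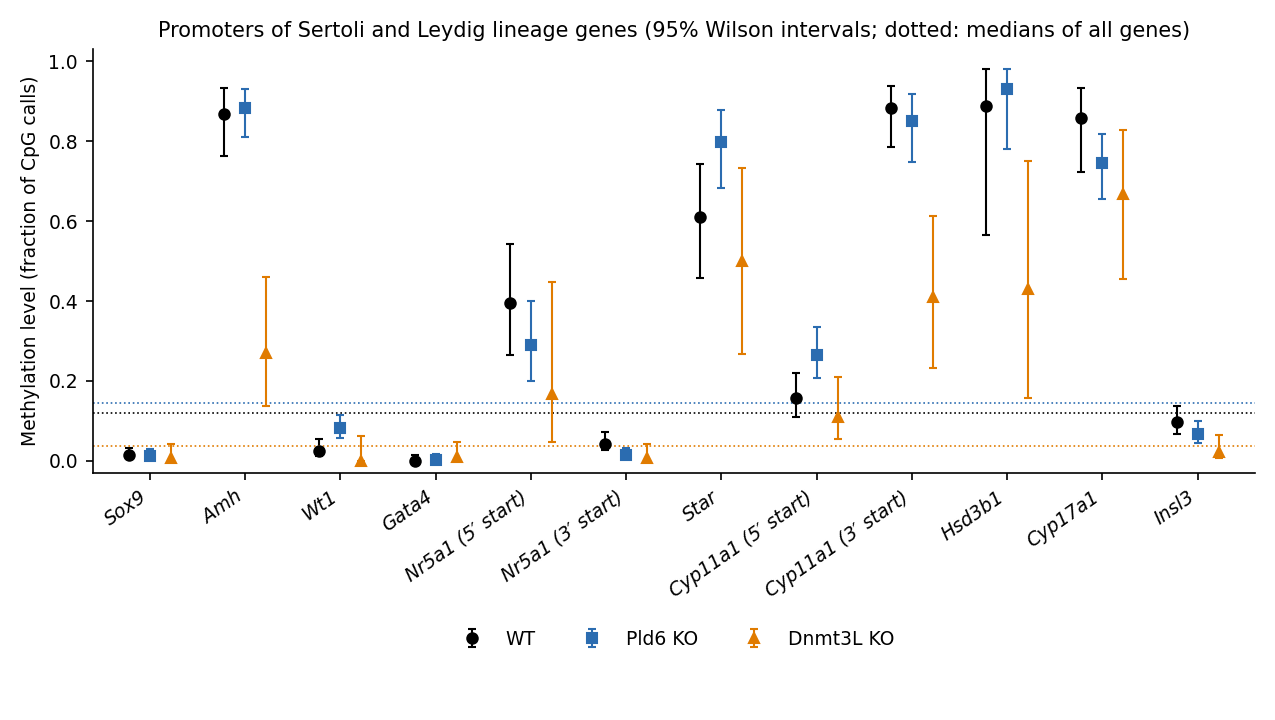
Methylation level of the promoters of the 10 genes (vertical axis, fraction of CpG calls) in each of the 3 libraries, with 95% Wilson intervals and, dotted, the medians of all genes. *Nr5a1* and *Cyp11a1* are shown at both annotated starts. *Sox9*, *Wt1*, *Gata4* and the 3′ start of *Nr5a1* lie near 0 in all libraries, and *Amh* is at 0.869 in WT and 0.269 in Dnmt3L KO.

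The promoters were then compared between libraries, and a promoter was called lower when its level was at least 0.3 under WT with at least 10 calls in both. In Dnmt3L KO, 1 of the 9 promoters tested was called, that of *Amh*, against 23.9% of the promoters of all genes. Among all genes, the call followed CpG density. A promoter was dense where a 500-bp window had an observed/expected CpG ratio of at least 0.75 and a GC content of at least 55%, poor where none reached a ratio of 0.48, and intermediate otherwise. It was made for 73.5% of promoters poor in CpG, 22.5% of intermediate ones and 0.321% of dense ones. *Sox9*, *Gata4* and *Insl3* were dense, *Wt1* and *Cyp11a1* intermediate, and the other 5 genes poor. With a WT level under 0.3, *Sox9*, *Gata4*, *Wt1*, *Cyp11a1* and *Insl3* could not be called. Of the 4 tested promoters at 0.3 or more in WT, those of *Nr5a1*, *Star* and *Cyp17a1* stayed short of the call, where 78.1% of all such promoters were called. *Nr5a1* was the nearest outside it, with a difference of 0.229 (-0.0820 to 0.420). Fisher's exact test on calls, which compares the libraries and not the genotypes, called *Amh* (adjusted p = 1.31e-06) and *Insl3* (adjusted p = 0.0207), against 41.8% of all promoters. None of the 9 was higher in Dnmt3L KO by 0.3 (0.00459% of all promoters) or by Fisher's exact test (0.119%).

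In Pld6 KO, 0 of 9 promoters were at least 0.3 lower than in WT, against 0.485% of all promoters, and 0 were at least 0.3 higher, against 0.571%. Fisher's exact test called none of the 9 in either direction (1.04% of all promoters lower, 5.12% higher), and the lowest adjusted p was 0.0645, for *Wt1*. The difference, WT minus Pld6 KO, was -0.187 (-0.359 to -0.0114) at the *Star* promoter and -0.109 (-0.192 to -0.0242) at the 5′ promoter of *Cyp11a1*, with adjusted p of 0.254 and 0.129 by the same exact test. The *Cyp11a1* difference was -0.0148 when site levels were averaged and -0.0264 within 500 bp of the start. Over the 9 genes the median difference, WT minus Pld6 KO, was -0.00292, beside -0.0104 over all promoters tested.

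Levels along the genes showed how far the unmethylated regions reached. A low stretch was taken as the longest run of 500-bp tiles at 0.2 or less in WT with at least 5 calls each. The tiles ran from 5 kb upstream to the gene end, so that a stretch could not be followed beyond these limits. That of *Wt1* was 7.0 kb long with 303 CpG sites, that of *Sox9* 6.5 kb with 313 sites, and that of *Gata4* 5.5 kb with 203 sites. Each of these covered the gene start. The *Sox9* stretch had 13 of 776 methylated calls in WT, 19 of 912 in Pld6 KO and 1 of 270 in the Dnmt3L KO library. Upstream of it, between 3.5 and 3.0 kb from the start, *Sox9* had 20 of 21, 17 of 23 and 1 of 17 methylated calls. The edge seen in WT and Pld6 KO was thus not seen at this place in Dnmt3L KO. Farther upstream Dnmt3L KO had 0 of 12 methylated calls between 4000 and 3500 bp, then 1 of 2 and 3 of 6 in the bins up to 5000 bp. These calls are too few to place an edge.

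In *Nr5a1* the low stretch began 0.5 kb downstream of the 5′ start and ran for 4.0 kb over the 3′ start, with 19 of 618 methylated calls in WT, 10 of 705 in Pld6 KO and 1 of 217 in the Dnmt3L KO library. In *Amh* it covered the gene from 0.5 to 2.5 kb, at 0.0365, 0.0611 and 0.0131, and was cut there because the tiles stop at the gene end. The next 500-bp bins, up to 4500 bp from the *Amh* start, were low in WT as well. They had 0 of 13, 2 of 85, 0 of 66 and 3 of 49 methylated WT calls. *Cyp11a1* had a stretch of 1.0 kb centred on its 5′ start, with 6 of 139, 8 of 115 and 0 of 48 methylated calls. No tile met the rule in *Star*, *Cyp17a1* and *Hsd3b1*. *Insl3* had its longest stretch upstream, from 4.0 to 1.0 kb before the start within *Jak3*, at 0.0929, 0.0303 and 0.0197. Its exon 1 had 0 of 106, 2 of 107 and 0 of 43 methylated calls.

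**Figure D2:**
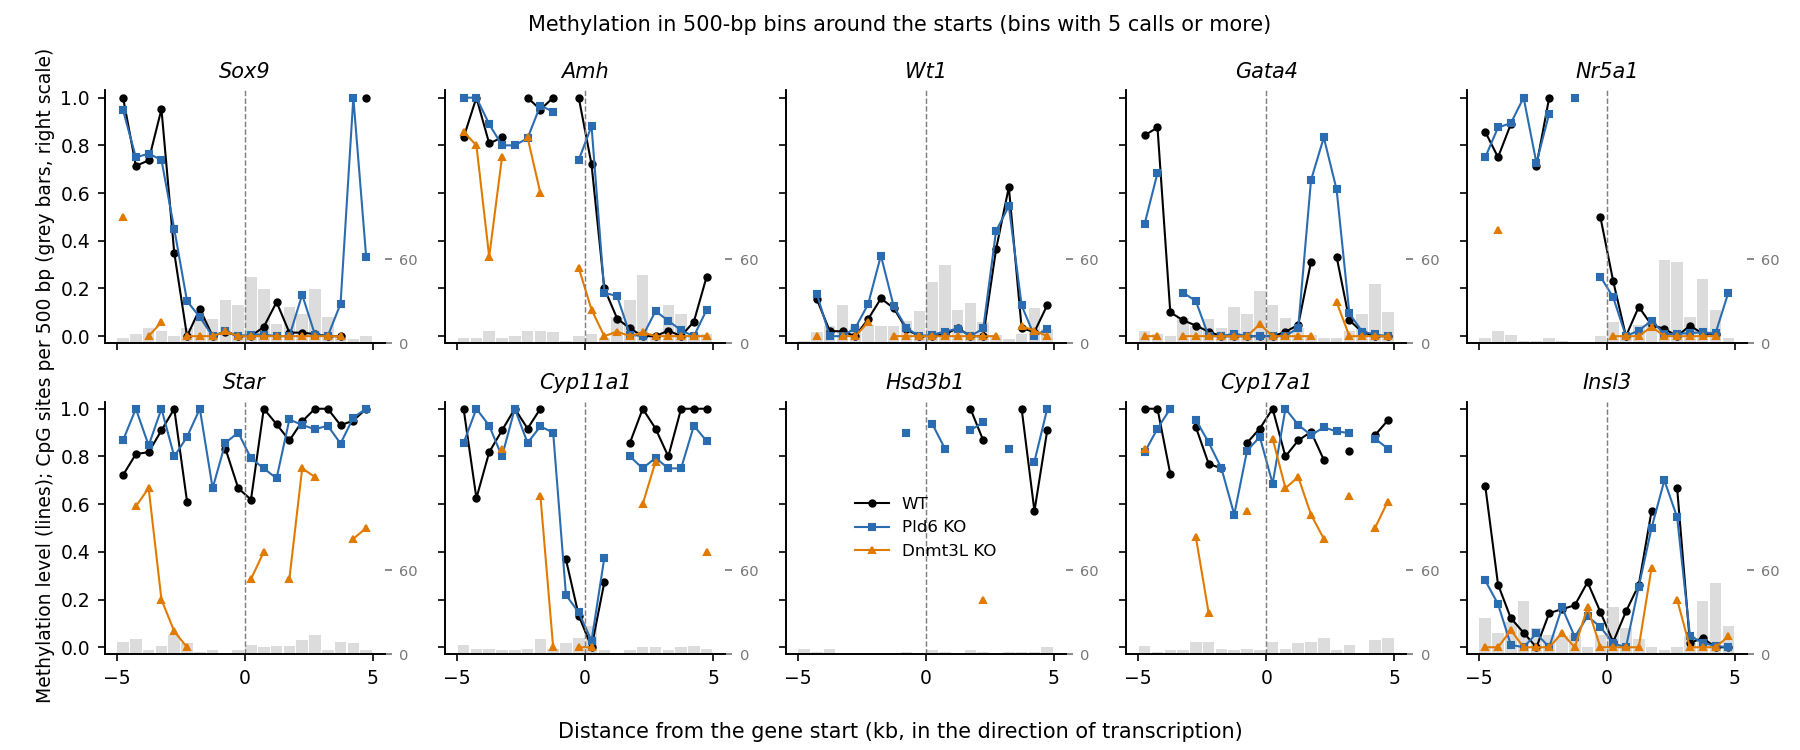
Methylation level in 500-bp bins (left axis, fraction; bins with at least 5 calls) against distance from the 5′ start in kb, 1 panel per gene, with CpG sites per bin as grey bars (right scale). Broad unmethylated regions surround the starts of *Sox9*, *Wt1* and *Gata4*, a narrow one that of *Cyp11a1*, and those of *Amh* and *Nr5a1* begin downstream of the 5′ start; *Star*, *Cyp17a1* and *Hsd3b1* show none in WT or Pld6 KO.

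Gene bodies gave more WT calls than promoters, except in *Insl3*. In WT the level was 0.928 in *Star* (265 calls), 0.872 in *Hsd3b1* (86 calls), 0.869 in *Cyp17a1* (191 calls) and 0.830 in *Cyp11a1* (758 calls). These 4 steroidogenic genes lay above the median of all gene bodies, 0.793, and the intervals of neighbours in this order overlapped. *Gata4* followed at 0.613 (1474 calls), *Wt1* at 0.393 (1685 calls) and *Nr5a1* at 0.367 (1263 calls), the intervals of the last 2 overlapping. *Insl3* at 0.107 (56 calls), *Sox9* at 0.0809 (445 calls) and *Amh* at 0.0365 (329 calls) formed the low end, again with overlapping intervals of neighbours, and under 5% of all gene bodies were lower than any of these 3 (4.55%, 3.89% and 2.62%).

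In Dnmt3L KO the body of *Star* was at 0.495 (99 calls), that of *Cyp17a1* at 0.548 (104 calls), that of *Cyp11a1* at 0.471 (280 calls) and that of *Hsd3b1* at 0.419 (31 calls). The differences from WT were 0.433 (0.330 to 0.533), 0.321 (0.214 to 0.425), 0.358 (0.293 to 0.421) and 0.453 (0.259 to 0.617), and these were the 4 of 10 gene bodies called at least 0.3 lower. Of all gene bodies 69.6% were called, and 76.8% of those at 0.3 or more in WT. *Gata4* was at 0.363, lower by 0.250 (0.204 to 0.294), *Wt1* at 0.150, lower by 0.243 (0.206 to 0.278), and *Nr5a1* at 0.154, lower by 0.213 (0.171 to 0.251). They stood just outside the call and *Cyp17a1* just inside it. *Sox9* (0.00690), *Amh* (0.0131) and *Insl3* (0 of 35 calls) were low already in WT and could not be called. Fisher's exact test on calls called 8 of 10, all but *Amh* (adjusted p = 0.255) and *Insl3* (adjusted p = 0.0840), against 92.5% of all gene bodies. The largest adjusted p of the 8 by this exact test was 0.000630, for *Sox9*. None of the 10 was higher in Dnmt3L KO by 0.3 (0% of all gene bodies) or by Fisher's exact test (0.0268%).

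Expressed as the percentage of the WT level kept in Dnmt3L KO, the 7 gene bodies at 0.3 or more in WT ran from 38.1% in *Wt1* and 42.0% in *Nr5a1* over 48.1% in *Hsd3b1*, 53.3% in *Star*, 56.8% in *Cyp11a1* and 59.3% in *Gata4* to 63.1% in *Cyp17a1*. The median of all such gene bodies was 49.1% and their quartiles were 36.4% and 59.5%. All but *Cyp17a1* fell between these quartiles. At promoters, *Amh* kept 31.0% and *Nr5a1* 42.2%, while *Cyp17a1* kept 77.8% on 21 Dnmt3L KO calls and *Star* 82.0% on 14, beside a median of 35.6% (20.8% to 51.7%) over all promoters at 0.3 or more in WT. The *Star* share depended on the window. Within 500 bp of the start *Star* was at 0.630 in WT and 0.222 in Dnmt3L KO, and *Cyp17a1* at 0.947 and 0.818.

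In Pld6 KO the gene body differences, WT minus Pld6 KO, ran from -0.0863 in *Wt1* to 0.0239 in *Star*. None of the 10 was at least 0.3 lower, against 0.228% of all gene bodies, and none at least 0.3 higher, against 0.378%. Fisher's exact test called 3 higher and 0 lower, with 12.1% of all gene bodies called higher and 4.42% lower. By this exact test, *Wt1* was at 0.479 against 0.393 in WT (adjusted p = 3.51e-06), *Gata4* at 0.679 against 0.613 (adjusted p = 0.00105) and *Nr5a1* at 0.432 against 0.367 (adjusted p = 0.00430). When site levels were averaged instead of pooling calls, the differences, WT minus Pld6 KO, were -0.0539 in *Wt1*, -0.0294 in *Gata4* and 0.00158 in *Nr5a1*, beside -0.0863, -0.0657 and -0.0655 from pooled calls, so that the direction for *Nr5a1* was not kept. The pooled levels of the germline and imprinted 5′ starts given above also exceeded WT in the Pld6 KO library, and the part of cell purity in these differences was not tested. In *Wt1*, exon 10 had 12 of 46 methylated calls in WT, 47 of 84 in Pld6 KO and 0 of 22 in the Dnmt3L KO library, and intron 4 had 9 of 86, 41 of 121 and 2 of 44.

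**Figure D3:**
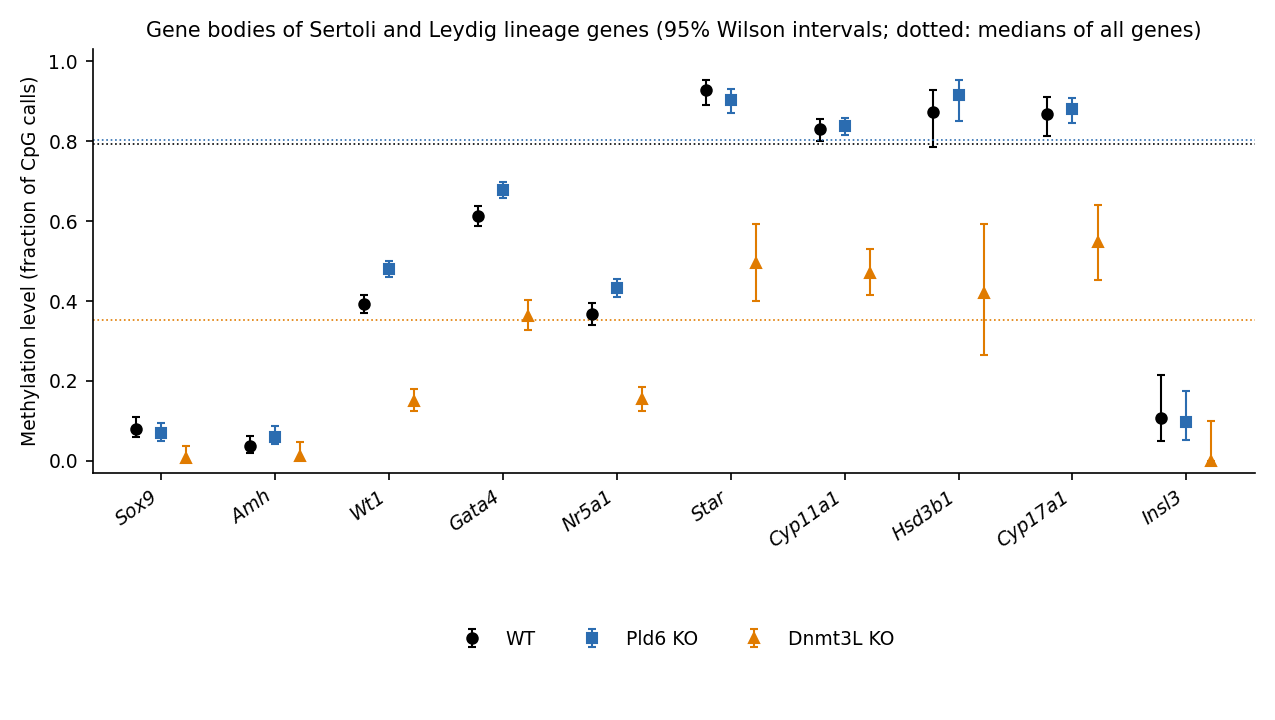
Methylation level of the gene bodies of the 10 genes (vertical axis, fraction of CpG calls) in the 3 libraries, with 95% Wilson intervals and, dotted, the medians of all genes. The steroidogenic genes *Star*, *Cyp11a1*, *Hsd3b1* and *Cyp17a1* are at 0.830 or more in WT and between 0.419 and 0.548 in Dnmt3L KO, and *Sox9*, *Amh* and *Insl3* are low in every library.

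In *Gata4*, *Nr5a1* and *Cyp11a1* the first exons had lower levels than the last ones, while in *Amh*, described above, the order was reversed. Exon 2 of *Gata4*, with 83 CpG sites, had 2 of 280 methylated calls in WT, 1 of 313 in Pld6 KO and 0 of 73 in the Dnmt3L KO library, whereas its last exon had 48 of 50, 73 of 75 and 8 of 18. *Nr5a1* showed the same order along its length, with 0 of 50, 0 of 40 and 0 of 24 in exon 3, and 61 of 68, 74 of 82 and 12 of 17 in exon 7. In *Cyp11a1* exon 1 had 0 of 51, 2 of 47 and 0 of 20 methylated calls and exon 2 had 23 of 29, 51 of 62 and 2 of 10. All exons of *Cyp11a1* together were at 0.635, 0.763 and 0.406.

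Over the 500-bp tiles from 5 kb upstream to the ends of the 10 genes, the level dropped as CpG sites became denser. Tiles with 1 to 4 sites were at 0.842 in WT, 0.838 in Pld6 KO and 0.492 in the Dnmt3L KO library. With 5 to 9 sites they were at 0.767, 0.797 and 0.350, and with 10 to 19 sites at 0.309, 0.402 and 0.132. The 34 tiles with 20 or more sites were at 0.0239, 0.0170 and 0.00546. Tiles of 1 gene are neighbours and all tiles share the libraries, so that this is a description. The gene bodies of intermediate level were mixtures on this scale. In *Nr5a1*, tiles with under 10 sites were at 0.790, 0.798 and 0.294 and those with 10 or more at 0.147, 0.162 and 0.0542. In *Wt1* the corresponding levels were 0.709, 0.772 and 0.272 against 0.109, 0.161 and 0.0190. In *Gata4* they were 0.787, 0.831 and 0.474 against 0.325, 0.461 and 0.134. *Star* did not show this contrast, with 0.913, 0.887 and 0.442 in its sparser tiles and 0.969, 0.922 and 0.731 in its 2 denser ones. *Cyp17a1* did not show it either, with 0.860, 0.882 and 0.583 in its sparser tiles and 0.885, 0.878 and 0.518 in its 3 denser ones. In *Cyp11a1* the denser tiles were lower than the sparser ones in WT, at 0.690 against 0.865, but not in Pld6 KO, at 0.854 against 0.835. In Dnmt3L KO its denser tiles were at 0.362, lower than its sparser ones but with overlapping intervals.

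**Figure D4:**
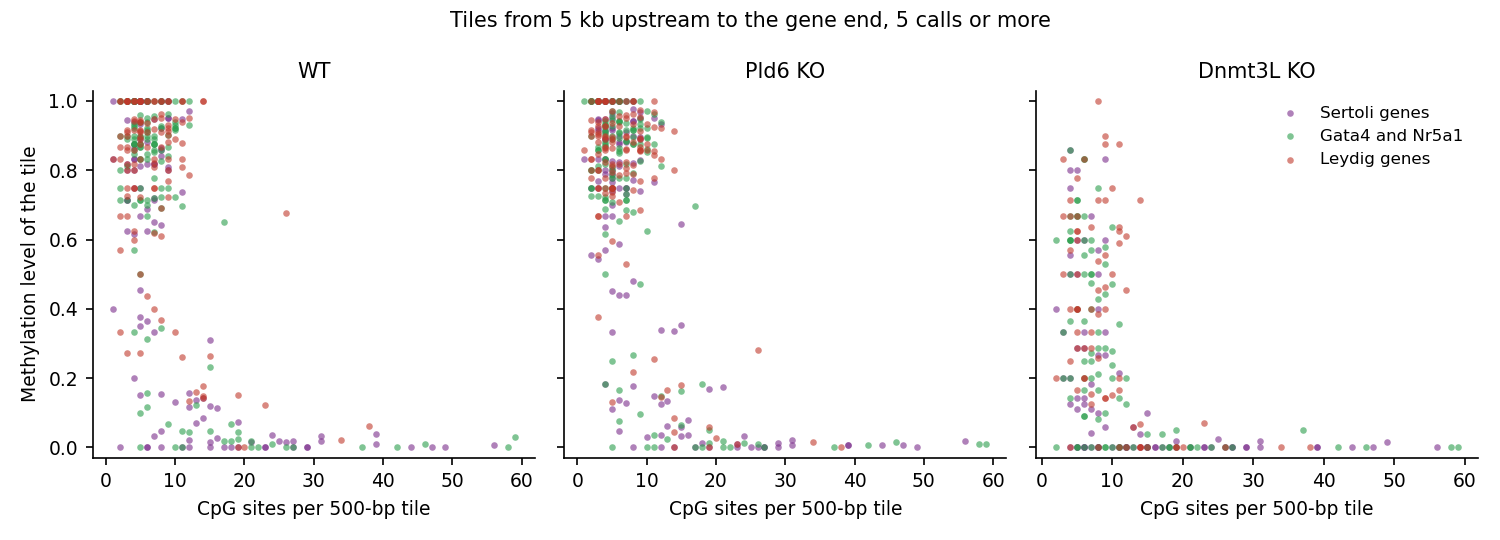
Methylation level of 500-bp tiles (vertical axis, fraction; at least 5 calls) against CpG sites per tile, for WT, Pld6 KO and Dnmt3L KO, coloured by Sertoli genes, *Gata4* and *Nr5a1*, and Leydig genes. Sparse tiles are mostly above 0.6 in WT and Pld6 KO and spread from 0 to 1 in Dnmt3L KO, and nearly all tiles with 20 or more sites lie near 0 in each library.

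Other genes of the same lineages were compared in the same way. Of 16 other Sertoli genes, 14 promoters were tested in Dnmt3L KO and 2 called at least 0.3 lower (*Fshr* and *Ptgds*), and of 12 other Leydig genes 11 were tested and 2 called (*Hsd17b3* and *Prlr*), beside the 23.9% of all promoters. In gene bodies the counts were 10 of 16 Sertoli genes and 8 of 12 Leydig genes, beside 4 of 10 here and 69.6% of all gene bodies. The median gene body difference, WT minus Dnmt3L KO, was 0.247 in the 10 genes, 0.422 in the other Sertoli genes, 0.355 in the other Leydig genes and 0.368 over all genes. In Pld6 KO, 0 were called at least 0.3 lower or higher in either list and region. By this rule 0.485% of all promoters were lower and 0.571% higher, and of all gene bodies 0.228% and 0.378%. Fisher's exact test called 0 promoters of either list in Pld6 KO, against 1.04% of all promoters lower and 5.12% higher. It called 3 of 16 Sertoli and 2 of 12 Leydig gene bodies higher, and 1 Leydig gene body lower. Among the 10 genes 3 were called higher, and of all gene bodies 12.1% higher and 4.42% lower. The most methylated Sertoli promoter in WT was *Ptgds*, for a prostaglandin synthase, at 0.800 in WT, 0.899 in Pld6 KO and 0.385 in the Dnmt3L KO library, followed by *Trf*, for transferrin, at 0.581, 0.695 and 0.333. The most methylated Leydig promoters were *Hsd17b3*, for the enzyme that makes testosterone, at 0.877, 0.892 and 0.360, and *Prlr*, for the prolactin receptor, at 0.535, 0.544 and 0.176. At the low end, *Fgf9*, a growth factor of Sertoli cell fate, and *Pdgfra*, a receptor of Leydig precursors, had 0 methylated calls of 388 and 199 in WT, and *Inhbb* (inhibin beta B) was at 0.0175 and *Por* (the electron donor of P450 enzymes) at 0.0120. The median promoter difference, WT minus Dnmt3L KO, was 0.0737 in the 9 genes tested here, 0.0638 in the other Sertoli genes and 0.0685 in the other Leydig genes, beside 0.0778 over all genes.

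The germline and imprinted lists, used above for cell purity, gave these values over the whole promoter. Of the germline promoters 1 of 11 was called lower in Dnmt3L KO (*Asz1*), and of the imprinted ones 0 of 7, with 9 of 11 and 4 of 8 gene bodies called (the latter *Kcnq1ot1*, *Snrpn*, *Plagl1* and *Airn*), beside the same 23.9% of all promoters and 69.6% of all gene bodies. Among germline promoters, *Asz1* and *Sycp3* were highest in WT, at 0.323 and 0.235, and *Dazl* and *Ddx4* lowest, at 0.0630 and 0.0863. Among imprinted promoters, *Airn* (0.372) and *Mest* (0.185) were highest and *Peg10* (0.0210) and *Plagl1* (0.0769) lowest. The unmethylated promoters of *Sox9*, *Gata4* and *Wt1* were thus below the level of every germline promoter of the list in WT.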

How the data were processed

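Whole-genome bisulfite sequencing of FACS-purified spermatogonia at postnatal day 7 was used, with 1 file each from WT, Pld6 KO and Dnmt3L KO mice. The authors prepared libraries by post-bisulfite adaptor tagging, sequenced single-end 100-bp reads, trimmed them and mapped them with Bismark to unique regions of mm10. Removal of duplicate reads is not given in the sources used here. The deposited files list each CpG site with the authors' counts of calls, methylated and not, and a methylation fraction, which was in every case the quotient of these counts. Per genotype, the deposited counts were pooled over the sites of each region. Genes and starts came from curated RefSeq transcripts on GRCm38.p6, where every site on a nuclear chromosome fell on a CG of the reference. The gene start was that of the transcript reaching farthest 5′, and for a gene under 1 kb the gene body was the whole gene. CpG density classes were computed from the reference.

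With 1 library per genotype no test between genotypes was made. Fisher's exact tests on calls were two-sided, with Benjamini-Hochberg adjustment over all genes tested, and compare libraries. PCR duplicates and linked calls were not modelled, so that intervals cover counting error only. The 10 genes and all gene lists were chosen with earlier results of these data known. Of the other lists, up to 2 genes with the highest and 2 with the lowest WT promoter level were named, among those with at least 10 calls in every library. *Fshr*, *Kcnq1ot1* and *Snrpn* were named after their values were seen. Alternatives changed site filters, thinning, call minimum, threshold, test, region and start. The scripts were tested on simulated calls. Python 3.11.15, numpy 2.4.6, pandas 2.3.3, scipy 1.17.1 and matplotlib 3.10.9 were used.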

Additional observations from a re-analysis of the deposited data

How the results depend on the processing

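Member promoters at least 0.3 lower in Dnmt3L KO numbered 1 (*Amh*) in the main setting. They numbered 2 with 1 site per 100-bp bin (*Amh* and *Nr5a1*), 2 with a minimum of 5 calls (*Amh* and *Hsd3b1*), 0 with a minimum of 30 calls, where 5 promoters without *Amh* were left to test, 2 with a difference of 0.2 (*Amh* and *Nr5a1*), 2 by Fisher's exact test (*Amh* and *Insl3*), 5 when a level under 2/3 of WT was called, 2 from 1 kb upstream to 1 kb downstream (*Amh* and *Star*), and 2 at the 3′ start (*Amh* and *Cyp11a1*). The shares of all promoters called in these settings were 27.3%, 27.3%, 12%, 30.6%, 41.8%, 81.6%, 20.8% and 25.3%, beside 23.9% in the main setting. Gene bodies numbered 4 in the main setting, 7 with 1 site per 100-bp bin and 7 with a difference of 0.2 (*Gata4*, *Wt1* and *Nr5a1* added in both), 8 by Fisher's exact test and 10 when a level under 2/3 of WT was called, with 77.2%, 86.6%, 92.5% and 89.1% of all gene bodies called. The other settings gave 1 promoter and 4 or 5 gene bodies. In Pld6 KO the count was 0 in every setting tried. The share of all promoters called lower there ran from 0.198% with a minimum of 30 calls to 9.24% with a level under 2/3 of WT. Of all gene bodies, 0.228% were called lower in the main setting and 4.42% by Fisher's exact test. Changes of sign were counted for called differences only. Of 258 differences of single genes recomputed, 228 lay within the interval of the main difference, 29 outside it, and 1, called by Fisher's exact test, changed sign. This was the *Nr5a1* gene body, WT minus Pld6 KO, at -0.0655 from pooled calls and 0.00158 from the mean of site levels, and the cause was not tested. Several differences not called changed sign too and are among the 228 and 29. Those of the *Star* and *Cyp17a1* promoters, WT minus Dnmt3L KO, went to -0.394 and -0.114 with sites of at least 3 calls. For WT minus Pld6 KO, the *Amh* promoter went from -0.0151 to 0.0603 with averaged site levels. The *Hsd3b1* promoter went from -0.0421 to 0.0625 within 500 bp of the start, and that of *Cyp11a1* from -0.109 to 0.0316 at the 3′ start. No paired analysis was possible because 1 library per genotype was analysed. Depth limited the Dnmt3L KO library most, with 12 calls at the 5′ promoter of *Nr5a1*, 14 at *Star* and 7 at *Hsd3b1*.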

Other observations

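Single tiles outside the promoters differed between WT and Pld6 KO. Between 5000 and 4500 bp upstream of *Insl3*, a tile of 26 CpG sites within *Jak3* had 21 of 31 methylated calls in WT, 30 of 107 in Pld6 KO and 0 of 31 in Dnmt3L KO. At the 3′ end of *Wt1*, between 45500 and 46000 bp from the start, a tile of 15 CpG sites had 17 of 55, 56 of 87 and 0 of 20. These tiles point in opposite directions, and both were picked out after their values were seen. In *Nr5a1*, a tile of 17 CpG sites between 16500 and 17000 bp from the 5′ start had 26 of 40, 37 of 53 and 1 of 25 methylated calls, and was chosen in the same way. Calls of neighbouring sites come from few reads, and no test was made.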
